A study of Mus musculus with 17 samples.

Results

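The Polycomb complex subunits are the genes of the 2 chromatin complexes that put repressive marks on histones, PRC2 and PRC1, and they were followed here in mouse embryonic stem cells as the culture medium was changed. The 35 members were given as a list of gene symbols that names core, accessory and alternative subunits, and all 35 were found by Ensembl ID among the 47729 genes counted in each library. The cells, of the lines R1 and CGR8, were grown in serum-free N2B27 medium, and LIF was present in every medium. LIM contained the MEK inhibitor PD325901 at 0.1 uM and IWP2 at 2 uM, an inhibitor that keeps Wnt proteins from being secreted. LFAI held FGF2 at 12 ng/ml, human Activin A at 20 ng/ml and IWP2 at 2 uM, and its cells were collected at 35 h or at 4 days. The reference medium L2i contained PD325901 at 0.1 uM and CHIR99021 at 3 uM, an inhibitor of the kinase GSK3 that activates the Wnt pathway. Each of these 4 groups had 1 library per line (n = 2), on plates coated with gelatin and Cultrex basement membrane extract. LIM cells had been in LIM for 4 passages (R1) and 6 passages (CGR8), after 5 passages each in 2i. Passages in 2i were 9 and 7 before the 35 h LFAI libraries, 3 and 9 before the 4 day LFAI libraries, and 10 and 8 in L2i. A separate time course of line R1, on gelatin with fetal calf serum and with another sequencing protocol, had 1 library at day 0 in L2i and 1 on each of days 1 to 4 in LIM and in LFAI. Between the 4 groups with both lines, medium, time since L2i and passage change together and cannot be told apart. In the time course, the LIM and LFAI libraries of the same day share the passage number and the passages in 2i, with 1 library each.

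PRC2 methylates lysine 27 of histone H3 through EZH1 or EZH2, which need EED and SUZ12 to be active, and PCL proteins (MTF2, PHF1, PHF19) or JARID2 with AEBP2 bring the complex to its targets as PRC2.1 or PRC2.2. PRC1 places ubiquitin on histone H2A through RING1 or RNF2 (RING1B) paired with one PCGF protein, and that protein sets the kind of complex: canonical PRC1 carries a CBX and a PHC subunit that read the PRC2 mark and compact chromatin, while variant PRC1 carries RYBP or its paralog YAF2. In embryonic stem cells these complexes sit on CpG-rich promoters of developmental genes and of germline genes.

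The 8 libraries of R1 and CGR8 held 15.1 to 22.6 M gene counts and the 9 of the time course 12.9 to 13.7 M gene counts (M, mega), and 47.7 to 51.9% of the reads of a library were assigned to no gene. The members together took 0.435 to 0.667% of the gene counts. The cells carried the pluripotency marker Pou5f1 in all 8, at 1190 and 1340 CPM (counts scaled to a common library total, with TMM factors) in LIM, 1810 and 1610 CPM at 35 h of LFAI, 1810 and 1930 CPM at 4 days of LFAI and 1820 and 1380 CPM in L2i, where the first value is R1 and the second CGR8, as in every pair of values below. The summed level of 8 pluripotency markers was 2180 to 2250 CPM at 4 days of LFAI and 6250 to 6660 CPM in L2i, and that of 5 markers of the epiblast after implantation was 2760 to 2920 CPM at 4 days and 121 to 132 CPM in L2i. Of the markers of other cells, 5 of 6 tested fibroblast genes were higher at 4 days than in L2i, and the summed level of the 7 in the list was 38.3 to 47.8 CPM, against 4.25 to 4.83 CPM in L2i, with Col3a1 at no more than 0.252 CPM in any library and Dcn at 0 in both L2i libraries. The fibroblast sum was 22.7 to 31.4 CPM in LIM and 11.5 to 12.3 CPM at 35 h. The summed neural markers were at 425 to 707 CPM at 4 days and 159 to 287 CPM in L2i, and the summed trophoblast markers at 53.5 to 208 CPM at 4 days and 113 to 121 CPM in L2i. These sums mix genes that moved in both directions. Of 4 tested neural genes, 1 was higher and 1 lower at 4 days than in L2i, with a median log2 fold change of -0.98. Of 5 tested trophoblast genes, 1 was higher and 3 were lower, with a median of -3.75. Over all genes, 21.5% were higher and 23.3% lower. The part of these markers in the results below was not tested. In bulk RNA, fewer cells of a type and less RNA per cell cannot be told apart.

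At 4 days of LFAI the Polycomb genes had moved mostly downward. Fewer of them, and also fewer of all genes, differed from L2i in LIM and at 35 h of LFAI. Of the 35 members, 5 were higher and 14 lower at 4 days of LFAI than in L2i by edgeR's quasi-likelihood test with Benjamini-Hochberg adjustment over all 15525 genes tested, at an adjusted p under 0.05. Over all genes, 21.5% were called higher and 23.3% lower in that comparison, and the median log2 fold change was -0.34 over the members and 0 over all genes. In LIM against L2i, 4 members were higher and 3 lower, where 11.3% and 7.81% of all genes were called. After 35 h of LFAI against L2i, 6 were higher and 1 was lower, where 7.35% and 7.16% of all genes were called, and 2 were lower with the replicate block, that is, with the cell line as a term in the fit. At 4 days of LFAI against LIM, 3 were higher and 17 lower, where 12.3% and 17.2% of all genes were called. At 4 days against 35 h of LFAI, 3 were higher and 15 lower, where 17.7% and 19% of all genes were called. Between 35 h of LFAI and LIM, 2 were higher and 2 lower, where 1.92% and 4.46% of all genes were called, and 3 were higher and 4 lower with the replicate block. The 3 comparisons with L2i share the L2i libraries, and the 6 comparisons reuse the same 8 libraries, so these counts are not independent of each other. The libraries of a pair of groups did not overlap for 28 members at 4 days of LFAI against L2i, where 74% of all genes had no overlap. The same count was 20 in LIM against L2i (60.8% of genes), 22 at 35 h against L2i (58.9%), 28 at 4 days against LIM (68.5%), 30 at 4 days against 35 h (72.3%) and 22 at 35 h against LIM (52.9%). Each call was repeated under 14 alternatives: another scaling, no filter on low counts, 2 other tools, the replicate block, a fit of only the 4 libraries compared, and each of the 8 libraries left out in turn. Exons of Ezh2, Eed, Suz12, Rbbp4, Rbbp7, Mtf2, Phf1, Rnf2, Pcgf5, Cbx7, Kdm2b and L3mbtl2 overlap those of a gene on the opposite strand, and Cbx6 and Kdm2b those of a gene on their own strand. Whether the counting used strand is not given in the sources used here, so reads of such a pair cannot be told apart and these counts are uncertain to that extent.

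**Figure D1:**
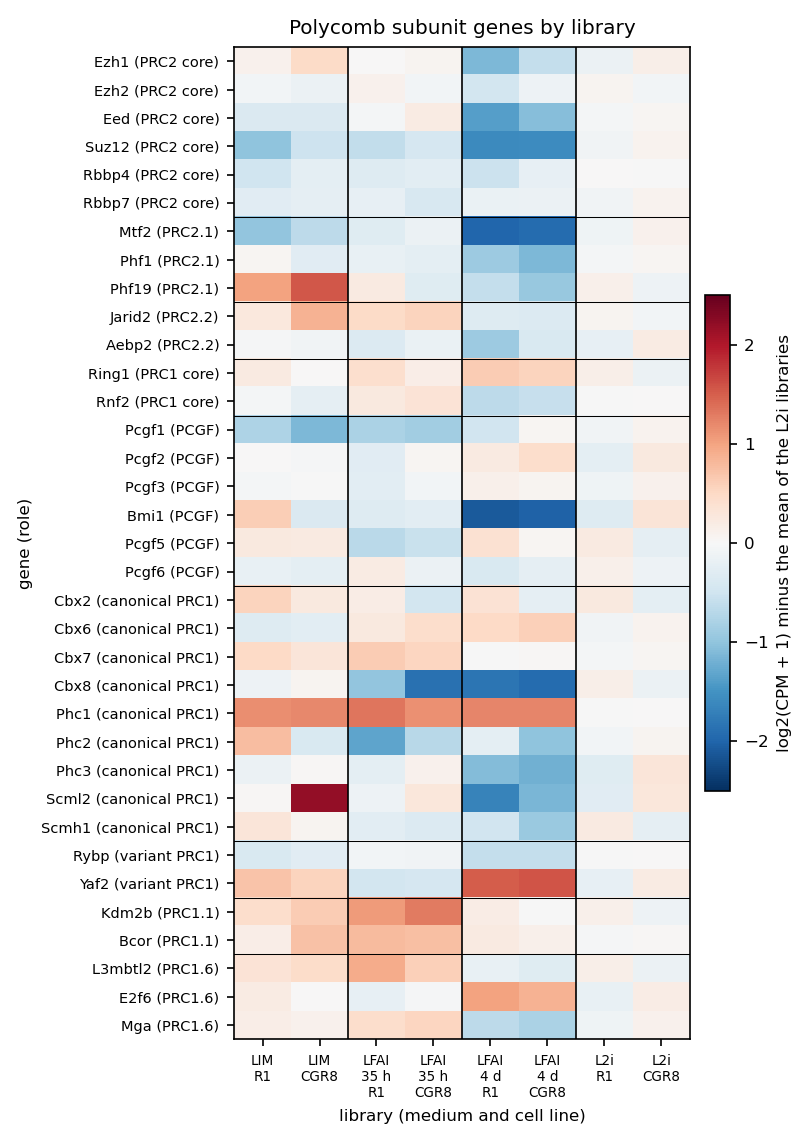
Level of each of the 35 Polycomb genes (rows, by role) in each of the 8 libraries (columns, by medium and cell line), as log2(CPM + 1) minus the mean of both L2i libraries, from blue (lower) to red (higher). The columns of 4 days of LFAI hold most of the dark blue cells (Mtf2, Suz12, Bmi1, Cbx8), while Phc1 is red in all 6 libraries outside L2i and Yaf2 and E2f6 are reddest at 4 days.

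The core genes of PRC2 did not move together. The scaffold genes Suz12 and Eed were much lower at 4 days of LFAI, while the catalytic gene Ezh2 was not called in any of the 6 comparisons. Suz12 (chr11:79993106-80034123, plus strand, GRCm38), whose protein holds the complex together, had 231 and 323 CPM in LIM, 299.5 and 346 CPM at 35 h of LFAI and 153 and 155 CPM at 4 days of LFAI, against 436 and 487 CPM in L2i. Both values at 4 days lay below every other library, and both LIM values lay below both L2i values. Suz12 was 3.00-fold lower at 4 days than in L2i (log2 fold change -1.58 ± 0.17 SE, adjusted p = 0.00016) and 1.67-fold lower in LIM than in L2i (-0.74 ± 0.17, adjusted p = 0.017). At 4 days it was also below LIM (-0.84 ± 0.17, adjusted p = 0.0074) and below 35 h (-1.07 ± 0.17, adjusted p = 0.0017). The call in LIM was lost without L2i R1 (-0.81), L2i CGR8 (-0.66) or LIM R1 (-0.51). The value after 35 h, -0.52 ± 0.17 (adjusted p = 0.076), was called with the replicate block, at -0.52 (adjusted p = 0.031).

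Eed (chr7:89954654-89980983, minus strand) encodes the subunit that reads the methyl mark and stimulates the enzyme. It had 187 and 186 CPM in LIM, 232 and 279 CPM at 35 h of LFAI and 92.5 and 114 CPM at 4 days of LFAI, against 234 and 247 CPM in L2i. The 4 day libraries were the lowest of all and did not overlap any other group. Eed was 2.33-fold lower at 4 days than in L2i (-1.22 ± 0.15, adjusted p = 0.00026), and lower than in LIM (-0.85 ± 0.15, adjusted p = 0.0035) and at 35 h (-1.30 ± 0.15, adjusted p = 0.00029). In LIM the difference from L2i was -0.37 ± 0.14 (adjusted p = 0.11).

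Ezh2, the main methyltransferase of dividing cells, had 213 and 201 CPM in LIM, 239 and 212 CPM at 35 h of LFAI and 163 and 205 CPM at 4 days of LFAI, against 233 and 213 CPM in L2i. At 4 days R1 was the lowest library and CGR8 lay among those of the other media. The log2 fold change from L2i was -0.28 ± 0.14 (adjusted p = 0.15), with -0.52 in R1 and -0.05 in CGR8. Ezh1, its paralog, which is known for a weaker activity and for expression in cells that do not divide, had 38.5 and 49.9 CPM in LIM, 35.9 and 37.1 CPM at 35 h of LFAI and 15.9 and 23.3 CPM at 4 days of LFAI, against 32.1 and 39.3 CPM in L2i. It was lowest in both 4 day libraries, 1.82-fold lower than in L2i (-0.86 ± 0.23, adjusted p = 0.013) and lower than in LIM (-1.17 ± 0.23, adjusted p = 0.0061) and at 35 h (-0.90 ± 0.23, adjusted p = 0.015). The Ezh1 call against L2i was lost without L2i CGR8 (-0.73) or LFAI 4 d R1 (-0.60). That against 35 h was lost without LFAI 4 d R1 (-0.64) or LFAI 35 h CGR8 (-0.88). Among the members, the histone-binding genes Rbbp4 and Rbbp7, whose proteins also belong to other chromatin complexes, were called in no comparison by the main test, though Rbbp4 was called lower at 4 days than in L2i with the replicate block, at -0.37 (adjusted p = 0.047), and in some other alternatives. Rbbp4 ranged from 545 to 802 CPM and Rbbp7 from 271 to 385 CPM over the 8 libraries.

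The accessory genes of PRC2.1 moved in both directions in LIM and in 1 direction at 4 days of LFAI. Mtf2 (chr5:108065674-108109004, plus strand), whose protein binds unmethylated CpG-rich DNA and is the main PCL protein of embryonic stem cells, had 220.1 and 277 CPM in LIM, 353 and 397 CPM at 35 h of LFAI and 111 and 116 CPM at 4 days of LFAI, against 404 and 475 CPM in L2i. The groups followed one another without overlap, with 4 days of LFAI lowest, then LIM, then 35 h of LFAI, then L2i. Mtf2 was 3.89-fold lower at 4 days than in L2i (-1.96 ± 0.15, adjusted p = 3.3e-05) and 1.77-fold lower in LIM than in L2i (-0.82 ± 0.15, adjusted p = 0.0068). At 4 days it was also lower than in LIM (-1.14 ± 0.15, adjusted p = 0.0011) and than at 35 h (-1.73 ± 0.15, adjusted p = 0.0001). These 4 calls were kept in all 14 alternatives. After 35 h the difference from L2i was -0.23 ± 0.15 (adjusted p = 0.36), and that from LIM was 0.59 ± 0.15 (adjusted p = 0.052), called with the replicate block, at 0.60 (adjusted p = 0.018).

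Phf19, another PCL gene, went the other way in LIM. It had 25.7 and 38.4 CPM in LIM, 14.7 and 9.87 CPM at 35 h of LFAI and 7.87 and 5.95 CPM at 4 days of LFAI, against 13.6 and 11.3 CPM in L2i. Both LIM libraries lay above all others, and both 4 day libraries lay below all others. Phf19 was 2.57-fold higher in LIM than in L2i (1.36 ± 0.29, adjusted p = 0.013), 1.80-fold lower at 4 days than in L2i (-0.85 ± 0.30, adjusted p = 0.044) and 4.64-fold lower at 4 days than in LIM (-2.21 ± 0.30, adjusted p = 0.0011). After 35 h it was 2.61-fold lower than in LIM (-1.39 ± 0.29, adjusted p = 0.029). The call in LIM was lost without L2i R1 (1.51), L2i CGR8 (1.24) or LIM CGR8 (1.05). The call at 4 days against L2i was lost with limma-voom, and without each of L2i R1, L2i CGR8, LFAI 4 d R1 and LFAI 4 d CGR8, at -1.06 to -0.67. The call at 35 h against LIM was lost with only the 4 libraries compared, and without each of LFAI 35 h R1, LFAI 35 h CGR8, LIM R1 and LIM CGR8, at -1.69 to -1.07. The call of 4 days against LIM was kept in all 14 alternatives.

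Phf1, the third PCL gene, had 11.7 and 9.04 CPM in LIM, 9.72 and 9.29 CPM at 35 h of LFAI and 5.54 and 4.57 CPM at 4 days of LFAI, against 10.8 and 11.7 CPM in L2i. Its 4 day libraries lay below all others, 2.22-fold lower than in L2i (-1.15 ± 0.26, adjusted p = 0.0076), 2.05-fold lower than in LIM (-1.03 ± 0.26, adjusted p = 0.019) and 1.88-fold lower than at 35 h (-0.91 ± 0.26, adjusted p = 0.026). The call against L2i was lost without LFAI 4 d CGR8 (-1.02). That against LIM was lost without LFAI 4 d R1 (-1.17), LFAI 4 d CGR8 (-0.91) or LIM R1 (-0.85). That against 35 h was lost without each of LFAI 4 d R1, LFAI 4 d CGR8, LFAI 35 h R1 and LFAI 35 h CGR8, at -1.05 to -0.80. Epop, a PRC2.1 partner that is not among the members, had 124 and 153 CPM in LIM, 117 and 129 CPM at 35 h of LFAI and 83.4 and 72.3 CPM at 4 days of LFAI, against 298 and 192 CPM in L2i, with no overlap between L2i and the other media. Epop was lower in LIM (-0.82 ± 0.21, adjusted p = 0.027), at 35 h (-0.99 ± 0.21, adjusted p = 0.016) and at 4 days (-1.65 ± 0.21, adjusted p = 0.00039) than in L2i.

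PRC2.2 is built with JARID2 and AEBP2, which bind the complex to nucleosomes that carry the PRC1 mark. Jarid2 had 399.8 and 603 CPM in LIM, 461 and 487 CPM at 35 h of LFAI and 264 and 260.4 CPM at 4 days of LFAI, against 346 and 316 CPM in L2i. Both 4 day libraries lay below all others, and the LIM value of CGR8 was the highest of all. Jarid2 was 1.91-fold lower at 4 days than in LIM (-0.94 ± 0.18, adjusted p = 0.0062) and 1.81-fold lower than at 35 h (-0.85 ± 0.18, adjusted p = 0.0069), calls that were kept in all 14 alternatives (the first at -0.61 without LIM CGR8), while its difference from L2i was -0.34 ± 0.18 (adjusted p = 0.16). In LIM it was 1.51-fold higher than in L2i (0.60 ± 0.18, adjusted p = 0.049), a call kept in 4 of 14 alternatives. It was lost with DESeq2 size factors, limma-voom and only the 4 libraries compared, and without each of L2i R1, L2i CGR8, LFAI 4 d R1, LFAI 4 d CGR8, LFAI 35 h R1, LFAI 35 h CGR8 and LIM CGR8, at 0.28 to 0.67, with the lowest value without LIM CGR8. Aebp2 had 175 and 169.6 CPM in LIM, 142 and 160.0 CPM at 35 h of LFAI and 95.3 and 138 CPM at 4 days of LFAI, against 156 and 206 CPM in L2i. It was 1.55-fold lower at 4 days than in L2i (-0.64 ± 0.20, adjusted p = 0.028), a call that was lost without L2i CGR8 (-0.43) or LFAI 4 d R1 (-0.39). With the replicate block it was also called lower at 4 days than in LIM, at -0.59 (adjusted p = 0.018).

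**Figure D2:**
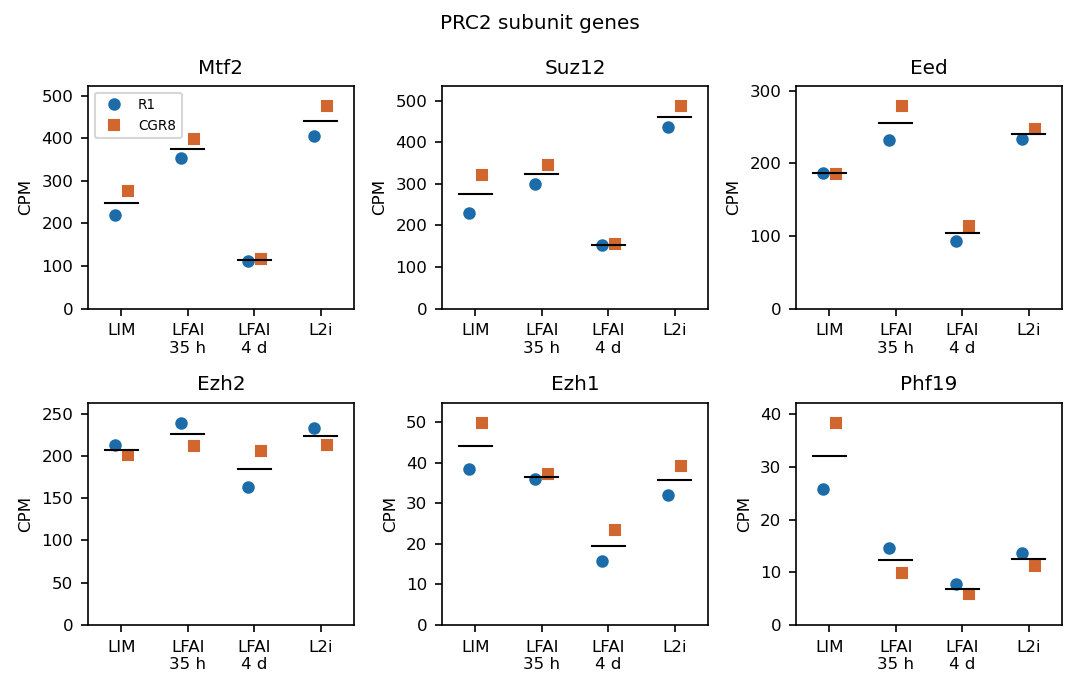
Level in CPM (vertical axis from 0) of 6 PRC2 genes in LIM, 35 h of LFAI, 4 days of LFAI and L2i, with 1 point per library (circle R1, square CGR8) and a bar at the mean of both. Mtf2, Suz12 and Eed are lowest at 4 days of LFAI, Ezh2 lies between 163 and 239 CPM, and Phf19 is highest in LIM, at 25.7 and 38.4 CPM.

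The catalytic RING subunits of PRC1 moved in opposite directions at 4 days of LFAI. Rnf2, the main H2A ubiquitin ligase of embryonic stem cells, had 134 and 118 CPM in LIM, 164 and 176 CPM at 35 h of LFAI and 87.1 and 91.9 CPM at 4 days of LFAI, against 138 and 138 CPM in L2i. Its 4 day libraries lay below all others, 1.54-fold lower than in L2i (-0.62 ± 0.12, adjusted p = 0.0033), 1.41-fold lower than in LIM (-0.49 ± 0.12, adjusted p = 0.016) and 1.90-fold lower than at 35 h (-0.92 ± 0.12, adjusted p = 0.00063). The call against LIM was lost without LFAI 4 d R1 (-0.45), LFAI 4 d CGR8 (-0.54) or LIM R1 (-0.42). Ring1, its paralog, had 13.4 and 11.3 CPM in LIM, 15.5 and 12.9 CPM at 35 h of LFAI and 18.2 and 17.2 CPM at 4 days of LFAI, against 12.7 and 10.1 CPM in L2i. It was 1.55-fold higher at 4 days than in L2i (0.63 ± 0.23, adjusted p = 0.048), a call that was kept in 3 of 14 alternatives. It was lost with no filter on low counts, DESeq2's Wald test and only the 4 libraries compared, and without each of L2i R1, L2i CGR8, LFAI 4 d R1, LFAI 4 d CGR8, LFAI 35 h R1, LFAI 35 h CGR8, LIM R1 and LIM CGR8, at 0.46 to 0.80.

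Of the 6 PCGF genes, each of which defines its own kind of PRC1, Bmi1 (PCGF4) was lower at 4 days of LFAI and Pcgf1 was lower in LIM. Bmi1 (chr2:18677018-18686629, plus strand) had 38.7 and 19.3 CPM in LIM, 19.9 and 20.6 CPM at 35 h of LFAI and 5.10 and 5.42 CPM at 4 days of LFAI, against 19.9 and 31.5 CPM in L2i. Both 4 day libraries lay far below all others, at 4.86-fold lower than in L2i (-2.28 ± 0.36, adjusted p = 0.0011), 5.5-fold lower than in LIM (-2.46 ± 0.36, adjusted p = 0.0017) and 3.85-fold lower than at 35 h (-1.95 ± 0.36, adjusted p = 0.0034), all kept in the 14 alternatives. Its paralog in canonical PRC1, Pcgf2 (MEL18), ranged from 56.8 to 94.6 CPM and was called only with the replicate block, as higher at 4 days than at 35 h, at 0.45 (adjusted p = 0.045). In LIM the lines disagreed on Bmi1, which stood at 38.7 CPM in R1 LIM and 19.9 CPM in R1 L2i, but at 19.3 CPM in CGR8 LIM and 31.5 CPM in CGR8 L2i.

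Pcgf1, the subunit of the KDM2B complex PRC1.1, had 6.63 and 4.99 CPM in LIM, 6.46 and 6.10 CPM at 35 h of LFAI and 8.37 and 12.5 CPM at 4 days of LFAI, against 11.2 and 12.8 CPM in L2i. The LIM values lay below both L2i values, 2.06-fold lower (-1.05 ± 0.30, adjusted p = 0.04), and the 35 h values lay in the same low range. That call was kept in 7 of 14 alternatives. It was lost with only the 4 libraries compared, and without each of L2i R1, L2i CGR8, LFAI 35 h R1, LFAI 35 h CGR8, LIM R1 and LIM CGR8, at -1.26 to -0.85. Pcgf5 was 1.94-fold higher at 4 days than at 35 h (0.96 ± 0.29, adjusted p = 0.031), with 11.3 and 8.69 CPM at 4 days and 4.89 and 5.39 CPM at 35 h, and this call was lost without each of LFAI 4 d R1, LFAI 4 d CGR8, LFAI 35 h R1 and LFAI 35 h CGR8, at 0.76 to 1.11. Pcgf3 (73.4 to 96.2 CPM) and Pcgf6 (69.9 to 105 CPM), of the variant complexes PRC1.3 and PRC1.6, were called in no comparison.

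The CBX proteins read the PRC2 mark through a chromodomain, and CBX7 is the main one in embryonic stem cells. Cbx7 had 246 and 213 CPM in LIM, 271 and 254 CPM at 35 h of LFAI and 171 and 178 CPM at 4 days of LFAI, against 167 and 180.0 CPM in L2i. The 35 h libraries were the highest and the 4 day and L2i libraries overlapped. Cbx7 was 1.51-fold higher at 35 h than in L2i (0.59 ± 0.12, adjusted p = 0.014) and 1.5-fold lower at 4 days than at 35 h (-0.59 ± 0.12, adjusted p = 0.0064). The call at 35 h was lost without L2i R1 (0.56) or LFAI 35 h R1 (0.55). At 4 days it was 1.32-fold lower than in LIM (-0.40 ± 0.12, adjusted p = 0.04), a call kept in 7 of 14 alternatives. It was lost with only the 4 libraries compared, and without each of L2i R1, LFAI 4 d R1, LFAI 4 d CGR8, LFAI 35 h CGR8, LIM R1 and LIM CGR8, at -0.49 to -0.30.

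Cbx8, of another CBX protein of canonical PRC1, had 4.51 and 5.35 CPM in LIM, 2.02 and 0.649 CPM at 35 h of LFAI and 0.692 and 0.588 CPM at 4 days of LFAI, against 5.65 and 4.45 CPM in L2i. The 4 day and L2i libraries did not overlap, nor did those of 35 h and L2i. Cbx8 was 7.82-fold lower at 4 days than in L2i (-2.97 ± 0.57, adjusted p = 0.0031), 7.62-fold lower at 4 days than in LIM (-2.93 ± 0.57, adjusted p = 0.0062) and 3.77-fold lower at 35 h than in L2i (-1.92 ± 0.53, adjusted p = 0.043). The call against LIM was lost without LFAI 4 d CGR8 (-2.83). The call at 35 h was kept in 6 of 14 alternatives, with -2.94 without LFAI 35 h R1. It was lost with only the 4 libraries compared, and without each of L2i R1, L2i CGR8, LFAI 4 d R1, LFAI 4 d CGR8, LFAI 35 h CGR8, LIM R1 and LIM CGR8, at -2.05 to -1.31. With the replicate block Cbx8 was also called lower at 35 h than in LIM, at -1.97 (adjusted p = 0.041). Cbx6 had 86.7 and 90.9 CPM in LIM, 129 and 147 CPM at 35 h of LFAI and 154 and 164 CPM at 4 days of LFAI, against 102 and 116 CPM in L2i. Both 4 day libraries were the highest and both LIM libraries the lowest, 1.79-fold higher at 4 days than in LIM (0.84 ± 0.13, adjusted p = 0.0023), 1.46-fold higher at 4 days than in L2i (0.54 ± 0.13, adjusted p = 0.0093) and 1.55-fold higher at 35 h than in LIM (0.63 ± 0.13, adjusted p = 0.027). The call against L2i was lost without L2i R1 (0.43) or LFAI 4 d CGR8 (0.49). That of 35 h against LIM was lost with only the 4 libraries compared, and without each of LFAI 35 h R1, LFAI 35 h CGR8, LIM R1 and LIM CGR8, at 0.54 to 0.73. Cbx6 shares exons on its strand with Npcd, so its counts are uncertain. Cbx2 ranged from 43.1 to 88.6 CPM and was called only with the replicate block, as lower at 35 h than in LIM, at -0.56 (adjusted p = 0.043).

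Among the PHC genes, whose proteins join canonical PRC1 complexes to one another through a SAM domain, Phc1 was higher in every medium than in L2i. Phc1 (chr6:122317731-122340561, minus strand) had 652 and 676 CPM in LIM, 743 and 647 CPM at 35 h of LFAI and 685 and 677 CPM at 4 days of LFAI, against 288 and 296 CPM in L2i. The 6 libraries outside L2i lay between 647 and 743 CPM, all above both L2i libraries. Phc1 was 2.28-fold higher in LIM (1.19 ± 0.12, adjusted p = 0.00055), 2.38-fold higher at 35 h (1.25 ± 0.12, adjusted p = 0.0005) and 2.33-fold higher at 4 days (1.22 ± 0.12, adjusted p = 8.8e-05) than in L2i, all kept in the 14 alternatives. The difference between 4 days and LIM was 0.04 ± 0.12 (adjusted p = 0.85). Phc3 had 20.5 and 23.4 CPM in LIM, 19.3 and 24.7 CPM at 35 h of LFAI and 10.3 and 9.41 CPM at 4 days of LFAI, against 18.3 and 28.6 CPM in L2i. Its 4 day libraries lay below all others, 2.37-fold lower than in L2i (-1.25 ± 0.26, adjusted p = 0.0044), 2.22-fold lower than in LIM (-1.15 ± 0.26, adjusted p = 0.011) and 2.23-fold lower than at 35 h (-1.16 ± 0.26, adjusted p = 0.0084). The call against LIM was lost without LFAI 4 d CGR8 (-1.10) or LIM CGR8 (-1.06). That against 35 h was lost without LFAI 4 d CGR8 (-1.11) or LFAI 35 h CGR8 (-0.97). Phc2, at 15.5 to 68.9 CPM, was not called in the main test. It was called lower at 35 h than in LIM with no filter on low counts (-1.32, adjusted p = 2.9e-05), by DESeq2's Wald test (-1.30, adjusted p = 0.013) and without LIM CGR8 (-1.79, adjusted p = 0.032). With no filter on low counts it was also called lower at 35 h than in L2i (-1.0, adjusted p = 0.0015), at 4 days than in L2i (-0.62, adjusted p = 0.044) and at 4 days than in LIM (-0.94, adjusted p = 0.0019), the last also without LIM CGR8 (-1.38, adjusted p = 0.031), by edgeR's quasi-likelihood test.

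The SCM proteins SCML2 and SCMH1 also bind PHC proteins. Scmh1 had 26.5 and 22.4 CPM in LIM, 17.6 and 16.6 CPM at 35 h of LFAI and 15.1 and 10.7 CPM at 4 days of LFAI, against 25.1 and 18.1 CPM in L2i. Both 4 day values lay below all others, 1.67-fold lower than in L2i (-0.74 ± 0.24, adjusted p = 0.035) and 1.89-fold lower than in LIM (-0.92 ± 0.24, adjusted p = 0.023). The call against L2i was lost with only the 4 libraries compared (-0.77) or without L2i R1 (-0.50) or LFAI 4 d CGR8 (-0.52). That against LIM was lost without LFAI 4 d CGR8 (-0.70) or LIM R1 (-0.81). Scml2 had 5.07 and 26.4 CPM in LIM, 4.44 and 6.30 CPM at 35 h of LFAI and 0.881 and 1.70 CPM at 4 days of LFAI, against 3.91 and 6.24 CPM in L2i. The LIM value of CGR8 stood far above the other libraries. Scml2 was 12.2-fold lower at 4 days than in LIM (-3.60 ± 0.76, adjusted p = 0.009). The value was -1.97 without LIM CGR8 and -4.37 without LIM R1, and the call was lost with limma-voom (-3.24) or without LFAI 4 d R1 (-3.20). With the replicate block Scml2 was also called lower at 4 days than in L2i, at -2.03 (adjusted p = 0.0091), and than at 35 h, at -2.13 (adjusted p = 0.0093).

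RYBP and YAF2 are alternative subunits of variant PRC1, and at 4 days of LFAI their genes moved in opposite directions. Yaf2 (chr15:93284278-93336935, minus strand) had 7.57 and 6.78 CPM in LIM, 2.81 and 2.92 CPM at 35 h of LFAI and 14.0 and 14.6 CPM at 4 days of LFAI, against 3.58 and 5.05 CPM in L2i. The groups did not overlap, with 4 days highest, then LIM, then L2i, then 35 h. Yaf2 was 3.32-fold higher at 4 days than in L2i (1.73 ± 0.29, adjusted p = 0.0016), 4.97-fold higher than at 35 h (2.31 ± 0.30, adjusted p = 0.0006) and 1.99-fold higher than in LIM (0.99 ± 0.28, adjusted p = 0.03). At 35 h it was 2.5-fold lower than in LIM (-1.32 ± 0.30, adjusted p = 0.036). The call of 4 days against LIM was lost with no filter on low counts, and without each of LFAI 4 d R1, LFAI 4 d CGR8, LIM R1 and LIM CGR8, at 0.91 to 1.06. That of 35 h against LIM was kept in 6 of 14 alternatives and was lost with limma-voom and only the 4 libraries compared, and without each of LFAI 4 d R1, LFAI 4 d CGR8, LFAI 35 h R1, LFAI 35 h CGR8, LIM R1 and LIM CGR8, at -1.40 to -1.23. In LIM the difference from L2i was 0.74 ± 0.29 (adjusted p = 0.11).

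Rybp, which held most of the pair's length-scaled level, had 149.9 and 159.8 CPM in LIM, 186 and 183 CPM at 35 h of LFAI and 128 and 128 CPM at 4 days of LFAI, against 192 and 198 CPM in L2i. The 4 day libraries lay below all others. Rybp was 1.52-fold lower at 4 days than in L2i (-0.61 ± 0.11, adjusted p = 0.0023) and 1.44-fold lower than at 35 h (-0.52 ± 0.11, adjusted p = 0.0065), both kept in the 14 alternatives. In LIM the difference from L2i was -0.33 ± 0.11 (adjusted p = 0.065). The annotation names 1 pseudogene of Rybp, so its counts are uncertain.

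**Figure D3:**
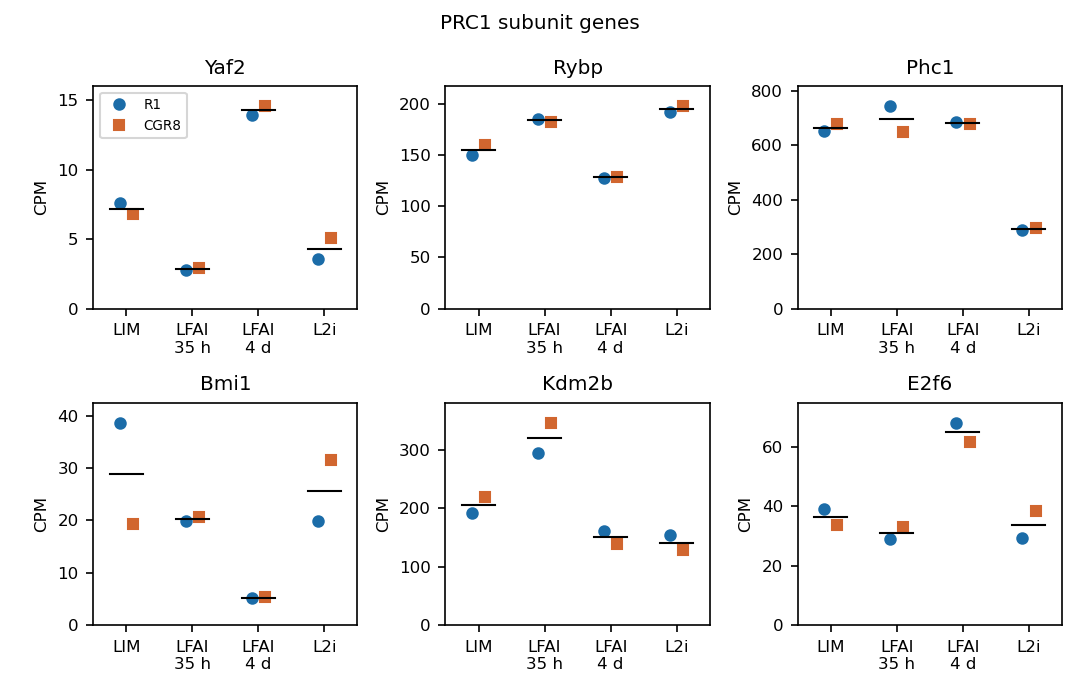
Level in CPM (vertical axis from 0) of 6 PRC1 genes in LIM, 35 h of LFAI, 4 days of LFAI and L2i, with 1 point per library (circle R1, square CGR8) and a bar at the mean of both. Yaf2 and E2f6 are highest and Rybp and Bmi1 lowest at 4 days, Kdm2b peaks at 35 h, and Phc1 is lowest in L2i, at 288 and 296 CPM.

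KDM2B, which binds unmethylated CpG islands through a CXXC domain, and BCOR bring PRC1.1 to its targets. Both genes were higher after 35 h of LFAI than in L2i, and Kdm2b was also higher there than in LIM. Kdm2b had 192 and 219.9 CPM in LIM, 294 and 347 CPM at 35 h of LFAI and 161 and 139 CPM at 4 days of LFAI, against 154 and 129 CPM in L2i. The 35 h libraries lay above all others, LIM came next, and 4 days overlapped L2i. Kdm2b was 2.27-fold higher at 35 h than in L2i (1.18 ± 0.15, adjusted p = 0.0019) and 2.14-fold lower at 4 days than at 35 h (-1.09 ± 0.15, adjusted p = 0.00085), both kept in the 14 alternatives. In LIM it was 1.46-fold higher than in L2i (0.54 ± 0.15, adjusted p = 0.037), and at 35 h 1.55-fold higher than in LIM (0.64 ± 0.15, adjusted p = 0.043). The call in LIM was lost with only the 4 libraries compared, and without each of L2i R1, L2i CGR8, LIM R1 and LIM CGR8, at 0.42 to 0.68. That of 35 h against LIM was lost with only the 4 libraries compared, and without each of LFAI 4 d R1, LFAI 4 d CGR8, LFAI 35 h R1, LFAI 35 h CGR8, LIM R1 and LIM CGR8, at 0.52 to 0.75. At 4 days Kdm2b was 1.37-fold lower than in LIM (-0.46 ± 0.15, adjusted p = 0.05 after rounding up), a call kept in 6 of 14 alternatives and lost with DESeq2 size factors and only the 4 libraries compared, and without each of L2i CGR8, LFAI 4 d R1, LFAI 4 d CGR8, LFAI 35 h CGR8, LIM R1 and LIM CGR8, at -0.57 to -0.36. Bcor stood at 160.1 and 155 CPM at 35 h and 90.0 and 94.1 CPM in L2i, a difference of 0.77 ± 0.18 (adjusted p = 0.023) whose call was lost without each of L2i R1, L2i CGR8, LFAI 35 h R1 and LFAI 35 h CGR8, at 0.76 to 0.83. At 4 days Bcor was 1.51-fold lower than at 35 h (-0.60 ± 0.18, adjusted p = 0.03), a call lost without each of LFAI 4 d R1, LFAI 4 d CGR8, LFAI 35 h R1 and LFAI 35 h CGR8, at -0.64 to -0.58. In LIM Bcor had 102.7 and 153.8 CPM. The difference of 35 h from LIM was not called (0.295 ± 0.179), with 0.64 in R1 and 0.01 in CGR8. In the R1 time course Bcor was at 114 CPM at day 0. It was then at 124.6, 120.8, 82.8 and 111.6 CPM on days 1 to 4 of LFAI, with 1 library a point. Kdm2b shares exons on its strand with Gm44574, so a part of its counts is uncertain.

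In PRC1.6, the complex that in embryonic stem cells holds germline genes silent, MGA pairs with MAX to bind E-boxes, E2F6 binds E2F sites, and L3MBTL2 reads chromatin. Here E2f6 was higher and Mga lower at 4 days of LFAI. E2f6 (chr12:16810963-16839742, plus strand) had 39.1 and 33.8 CPM in LIM, 29.1 and 33.0 CPM at 35 h of LFAI and 68.2 and 61.8 CPM at 4 days of LFAI, against 29.3 and 38.4 CPM in L2i. Both 4 day values lay above all others, 1.92-fold higher than in L2i (0.94 ± 0.18, adjusted p = 0.0031), 1.79-fold higher than in LIM (0.84 ± 0.18, adjusted p = 0.0097) and 2.09-fold higher than at 35 h (1.06 ± 0.18, adjusted p = 0.0024). The call against LIM was lost without LFAI 4 d R1 (0.77) or LIM CGR8 (0.73). Mga had 457 and 441 CPM in LIM, 552 and 594 CPM at 35 h of LFAI and 258 and 233 CPM at 4 days of LFAI, against 376 and 442 CPM in L2i. Its 4 day values were the lowest and its 35 h values the highest. Mga was 1.66-fold lower at 4 days than in L2i (-0.73 ± 0.13, adjusted p = 0.0019), 1.83-fold lower than in LIM (-0.87 ± 0.13, adjusted p = 0.0017) and 2.33-fold lower than at 35 h (-1.22 ± 0.13, adjusted p = 0.00023), all kept in the 14 alternatives. At 35 h it was 1.40-fold higher than in L2i (0.49 ± 0.13, adjusted p = 0.035), a call lost with only the 4 libraries compared, and without each of L2i R1, LFAI 35 h R1 and LFAI 35 h CGR8, at 0.39 to 0.55. L3mbtl2 had 311 and 336 CPM in LIM, 468 and 372 CPM at 35 h of LFAI and 216 and 198 CPM at 4 days of LFAI, against 269 and 223 CPM in L2i. It was 2.03-fold lower at 4 days than at 35 h (-1.02 ± 0.15, adjusted p = 0.0013), 1.56-fold lower at 4 days than in LIM (-0.64 ± 0.15, adjusted p = 0.015) and 1.71-fold higher at 35 h than in L2i (0.77 ± 0.15, adjusted p = 0.012). The call against LIM was lost without LFAI 4 d CGR8 (-0.59) or LIM CGR8 (-0.58). That of 35 h against L2i was lost without L2i CGR8 (0.67) or LFAI 35 h R1 (0.60).

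Germline genes known as targets of PRC1.6 were taken as a list of 14, chosen with earlier results of these data known. At 4 days of LFAI, 9 were lower and 1 higher than in L2i, with a median log2 fold change of -2.27, against 23.3% lower, 21.5% higher and a median of 0 over all genes tested. The 4 with the smallest p were all lower. Dazl, which encodes an RNA-binding protein of germ cells, had 8.45 and 24.8 CPM in LIM, 19.1 and 24.7 CPM at 35 h of LFAI and 0.944 and 1.76 CPM at 4 days of LFAI, against 158 and 131 CPM in L2i, a log2 fold change of -6.74 ± 0.56 at 4 days (adjusted p = 4.1e-05) and -3.12 ± 0.44 in LIM (adjusted p = 0.0022). Stk31, a gene expressed in testis, had 14.2 and 19.3 CPM in LIM, 23.0 and 25.7 CPM at 35 h of LFAI and 1.51 and 2.03 CPM at 4 days of LFAI, against 42.8 and 35.2 CPM in L2i, a log2 fold change of -4.46 ± 0.27 at 4 days (adjusted p = 1.1e-05). Hormad1, of the meiotic chromosome axis, had 5.95 and 16.3 CPM in LIM, 19.9 and 21.5 CPM at 35 h of LFAI and 0.126 and 0.327 CPM at 4 days of LFAI, against 19.7 and 29.5 CPM in L2i, a log2 fold change of -6.72 ± 0.65 (adjusted p = 8.8e-05). For Stag3, a meiotic cohesin subunit, the values were 46.5 and 111 CPM in LIM, 95.9 and 86.7 CPM at 35 h of LFAI and 16.5 and 17.1 CPM at 4 days of LFAI, against 75.1 and 87.3 CPM in L2i, a log2 fold change of -2.27 ± 0.35 (adjusted p = 0.00093). In each of these 4 genes both 4 day libraries lay below all other libraries. The gene that was higher, Tdrkh, which was named after its value was seen, had 4.13 and 7.91 CPM in LIM, 1.96 and 2.73 CPM at 35 h of LFAI and 10.2 and 12.7 CPM at 4 days of LFAI, against 3.17 and 1.39 CPM in L2i, a log2 fold change of 2.30 ± 0.48 (adjusted p = 0.005).

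The bases upstream of these genes are shown because the proteins of PRC1.6 are known for the sequences they bind. They are the 250 bases before the annotated start, 5′ to 3′ on the gene's strand, from RefSeq on GRCm38.p6, with E-boxes (CACGTG, its own reverse complement) and E2F cores (TCCCGC or GCGGGA) in capitals. They lie at chr6:49395289-49395538, plus strand for Stk31, at chr3:95559427-95559676, plus strand for Hormad1, at chr5:138280259-138280508, plus strand for Stag3, at chr17:50293621-50293870, minus strand for Dazl and at chr12:16810715-16810964, plus strand for E2f6.
Stk31: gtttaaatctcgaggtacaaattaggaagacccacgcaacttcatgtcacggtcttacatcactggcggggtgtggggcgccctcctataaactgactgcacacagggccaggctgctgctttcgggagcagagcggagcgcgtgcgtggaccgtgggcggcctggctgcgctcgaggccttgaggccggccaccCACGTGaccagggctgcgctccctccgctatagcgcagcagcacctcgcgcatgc
Hormad1: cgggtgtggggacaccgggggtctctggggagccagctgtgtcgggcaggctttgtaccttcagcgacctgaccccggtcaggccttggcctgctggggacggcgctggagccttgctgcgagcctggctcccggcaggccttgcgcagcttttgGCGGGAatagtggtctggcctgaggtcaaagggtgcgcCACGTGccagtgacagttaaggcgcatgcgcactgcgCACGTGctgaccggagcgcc
Stag3: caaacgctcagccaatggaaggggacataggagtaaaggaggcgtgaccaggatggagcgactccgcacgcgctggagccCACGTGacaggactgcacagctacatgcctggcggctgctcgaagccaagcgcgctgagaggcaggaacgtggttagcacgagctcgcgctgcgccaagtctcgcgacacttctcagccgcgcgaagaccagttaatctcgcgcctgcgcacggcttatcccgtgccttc
Dazl: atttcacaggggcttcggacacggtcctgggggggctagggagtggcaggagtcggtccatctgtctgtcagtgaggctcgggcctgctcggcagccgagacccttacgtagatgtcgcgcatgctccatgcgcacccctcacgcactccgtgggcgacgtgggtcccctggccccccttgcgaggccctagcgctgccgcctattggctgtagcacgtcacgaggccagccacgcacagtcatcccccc
E2f6: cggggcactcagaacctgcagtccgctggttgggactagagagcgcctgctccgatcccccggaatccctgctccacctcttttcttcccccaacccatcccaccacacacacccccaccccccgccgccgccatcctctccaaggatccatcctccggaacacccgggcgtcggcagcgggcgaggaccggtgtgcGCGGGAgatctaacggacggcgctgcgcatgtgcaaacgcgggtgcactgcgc
Stk31 and Stag3 hold 1 E-box each, Hormad1 holds 2 E-boxes and 1 E2F core, E2f6 holds 1 E2F core, and neither motif's letters are in the Dazl window. No motif match overlapped another. Over the germline list, 12 of 16 promoter entries (75.0%) hold an E-box and 37.5% an E2F core. These entries belong to 14 genes, and Hormad1 and Stk31 have entries with overlapping windows, so the same E-boxes count more than once. The window of Tdrkh, the gene that was higher, holds neither motif, and neither does that of Dazl, which was lower. Whether the motifs go with the direction of change was not tested. Over the members, 31 of 35 genes matched with 44 entries, of which 7 (15.9%) hold an E-box and 34.1% an E2F core. Over all 32851 entries of the table the shares are 6.02% and 16.9%. Since the germline list was made of known PRC1.6 targets, its higher shares may follow from that choice. The median number of CpG in the window is 19 for the germline list, 20 for the members and 6 over all entries, so the sets also differ in base composition. Pcgf1, Cbx2, Rybp and Yaf2 had no entry.

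Levels per length were compared between paralogs of a family. These are TPM values, counts per kb of exon scaled to the same total in each library, and each share is a member's part of the TPM of its family in 1 library. No test is given, since 2 libraries against 2 cannot go below an exact two-sided p of 0.333. Yaf2 made up 11.3 and 9.69% of the Rybp and Yaf2 total in LIM, 3.69 and 3.89% at 35 h and 21.6 and 22.3% at 4 days of LFAI, against 4.5 and 6.07% in L2i, and no pair of groups overlapped. The total of the pair was 128 and 121 TPM at 4 days and 136 and 157 TPM in L2i. Ring1 made up 21 and 19.2% of the RING total at 4 days and 10.5 and 8.52% in L2i, with 8.53 to 11.3% in the other 4 libraries, so only the 4 day libraries stood apart. Of the PCGF total, Bmi1 held 2.37 and 2.21% at 4 days and 8.67 and 12.0% in L2i. Pcgf2 held 42.3 and 43.5% of it at 4 days and 28.8 and 35.3% in L2i. In the R1 time course, with 1 library a point, the Pcgf2 share instead went from 36.3% at day 0 to 28.4% on day 4 of LFAI. Between the same libraries Ring1 went from 9.4 to 11.9%, Bmi1 from 9.68 to 7.87% and Yaf2 from 7.0 to 21.8%. The Rybp and Yaf2 total went from 131 to 160 TPM between them.

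The PHC total was 510 and 506 TPM in LIM, 488 and 466 TPM at 35 h and 498 and 456 TPM at 4 days, against 194 and 224 TPM in L2i, and Phc1 was at least 88.1% of it in every library of this set. By group means, Phc1 had the highest TPM of all members at 4 days, at 462 TPM, and the sixth highest in L2i, at 186 TPM. The PCL total was 179 and 223 TPM in LIM, 230 and 272 TPM at 35 h and 83.6 and 79.3 TPM at 4 days, against 245 and 315 TPM in L2i. Within it, Phf19 made up 10.8 and 13.0% in LIM and 3.52 and 2.52% in L2i, and Mtf2 82.0 and 82.6% in LIM and 92.5 and 93.7% in L2i. At 4 days Mtf2 held 86.0 and 89.1%. In the CBX family Cbx7 held 44.6 to 61.8% in all 8 libraries with both lines. Cbx6 held 24.5 and 28.1% at 4 days and 17.9 and 21.2% in L2i, and Cbx8 held 0.318 and 0.291% at 4 days and 2.87 and 2.34% in L2i. From day 0 to day 4 of LFAI in the time course, Cbx6 went from 16.5 to 16.8% and Cbx8 from 3.46 to 0.872%. Ezh2 held 81.8 to 92.0% of the Ezh1 and Ezh2 total in all 8 libraries.

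**Figure D4:**
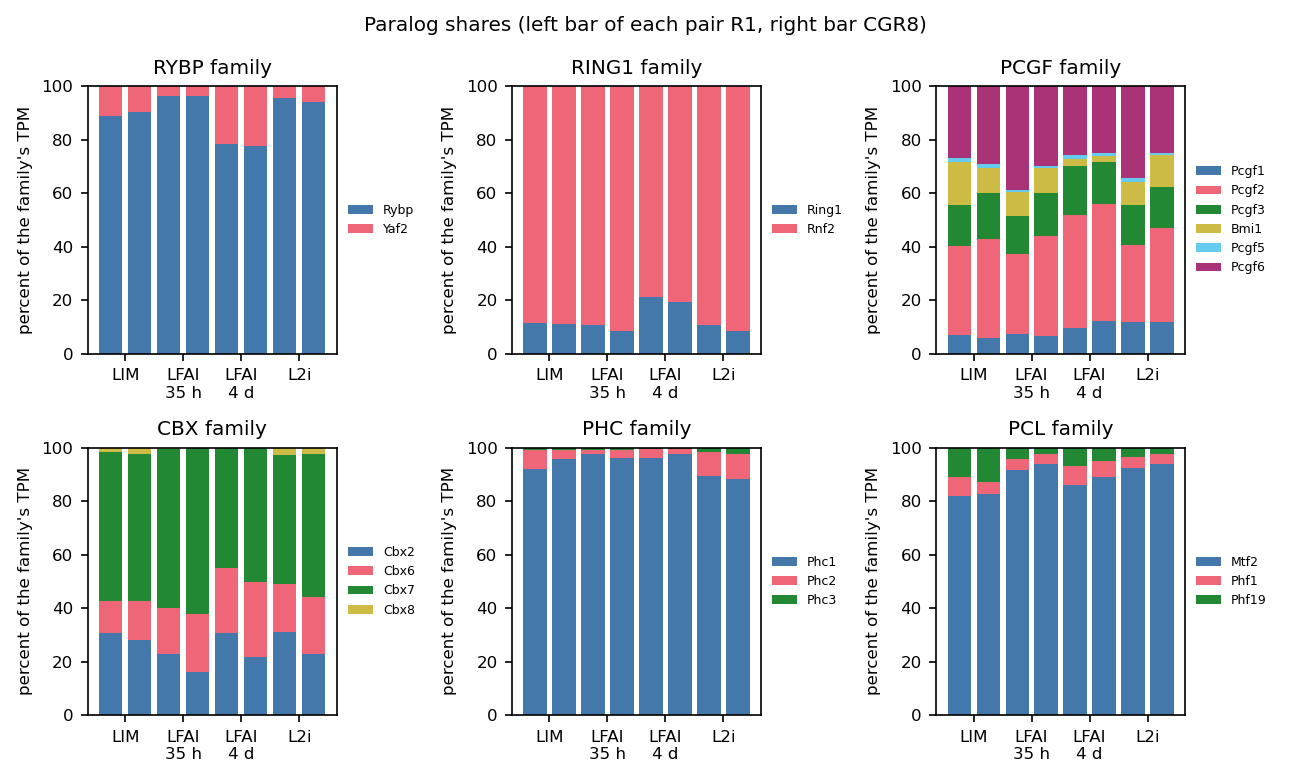
Share of each paralog in the TPM of its family (percent, stacked to 100) in each of the 8 libraries, grouped by LIM, 35 h of LFAI, 4 days of LFAI and L2i, with R1 as the left and CGR8 as the right bar of a pair. Yaf2 and Ring1 take larger parts at 4 days of LFAI (21.6 and 22.3%, 21 and 19.2%), Bmi1 holds 2.37 and 2.21% of the PCGF stack there, and Phf19 takes its largest part of the PCL stack in LIM.

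The R1 time courses followed the same media day by day, with 1 library a point and so with no test. A member is counted as changed when it passed 1.5-fold from day 0. On days 1 to 4 in LIM, 2, 3, 2 and 2 members were past 1.5-fold higher, where 11.9, 14.4, 14.3 and 15.7% of 15682 genes were, and 2, 1, 3 and 1 were past it lower, where 10.1, 10.6, 13.7 and 13.6% were. On days 1 to 4 in LFAI, 2, 4, 4 and 5 members were higher, where 10.9, 18.2, 22.5 and 23.5% of genes were, and 1, 4, 6 and 9 were lower, where 9.07, 18.6, 21.1 and 21.2% were. The median log2 change of the members at day 4 was -0.15 in LFAI and 0.13 in LIM, with medians over all genes of -0.01 and 0.

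Phf19 and Phc1 were past 1.5-fold higher by day 1 in both media. Phf19 was at 2.78 CPM at day 0, then at 19.7, 23.8, 35.3 and 39.5 CPM on days 1 to 4 in LIM and at 20.9, 8.65, 5.49 and 7.58 CPM on those days in LFAI. Its levels in LIM went up on each day, while in LFAI they peaked on day 1. The day 0 level was far below the 13.6 CPM of R1 in L2i of the other set, so each change from day 0 is counted from a low start. Phc1 was at 279 CPM at day 0, then at 506, 540.5, 631 and 703 CPM in LIM and at 486, 1083, 1197 and 1153 CPM in LFAI. The LFAI course lay above the LIM course from day 2. Pcgf1 was at 18.0 CPM at day 0, then at 8.08, 8.86, 7.80 and 7.56 CPM in LIM and at 10.7, 5.95, 6.21 and 6.80 CPM in LFAI, below day 0 in all 8 later libraries.

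Cbx8 passed 1.5-fold from day 2 of LFAI and Yaf2 and E2f6 from day 3, while Jarid2 and Kdm2b passed it on day 2 alone. Cbx8 was at 6.94 CPM at day 0, then at 8.57, 1.47, 1.23 and 1.86 CPM in LFAI and at 10.2, 8.71, 8.49 and 8.84 CPM in LIM, so that the low level was reached between days 1 and 2 of LFAI. Jarid2, at 342 CPM at day 0, stood at 418, 748, 486 and 403 CPM in LFAI and at 416, 452, 471 and 452 CPM in LIM, and Kdm2b, at 138 CPM at day 0, at 151, 262, 206 and 175 CPM in LFAI and at 144, 154, 184 and 178 CPM in LIM. Both had their highest LFAI level on day 2, when the log2 change from day 0 was 1.13 for Jarid2 and 0.93 for Kdm2b, against 0.24 and 0.34 on day 4. Yaf2 was at 4.53 CPM at day 0, then at 4.18, 5.18, 14.0 and 16.4 CPM in LFAI and at 5.31, 5.18, 4.28 and 5.90 CPM in LIM. Its paralog Rybp was at 152 CPM at day 0, then at 196, 213, 164 and 148 CPM in LFAI. The log2 change of Rybp on day 4 of LFAI was -0.04, so the lower Rybp level of the other set was not seen here. E2f6 was at 27 CPM at day 0, then at 26.2, 25.0, 52.5 and 56.1 CPM in LFAI and at 26.4, 23.5, 23.6 and 23.1 CPM in LIM. On the log2 scale Yaf2 was 0.19 from day 0 on day 2 and 1.6 on day 3 of LFAI, and E2f6 was -0.11 and 0.96.

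The PRC2 genes Suz12, Eed and Mtf2 were past 1.5-fold lower on days 3 and 4 of LFAI. Suz12 was at 371 CPM at day 0, then at 361, 312, 237 and 220.1 CPM in LFAI. Eed was at 186 CPM at day 0, then at 210.2, 185, 113 and 114 CPM in LFAI, and Mtf2 was at 439.9 CPM, then at 403, 402, 259.7 and 227 CPM. Their log2 changes at day 4 were -0.75, -0.70 and -0.95. In LIM none of the 3 was past 1.5-fold lower on any day, at 313, 438, 412 and 406 CPM for Suz12 and 391, 441, 432 and 403 CPM for Mtf2. Ezh2 was at 216 CPM at day 0, then at 223, 276, 206 and 206 CPM in LFAI and at 203, 225, 229.5 and 229 CPM in LIM, with no day past 1.5-fold.

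**Figure D5:**
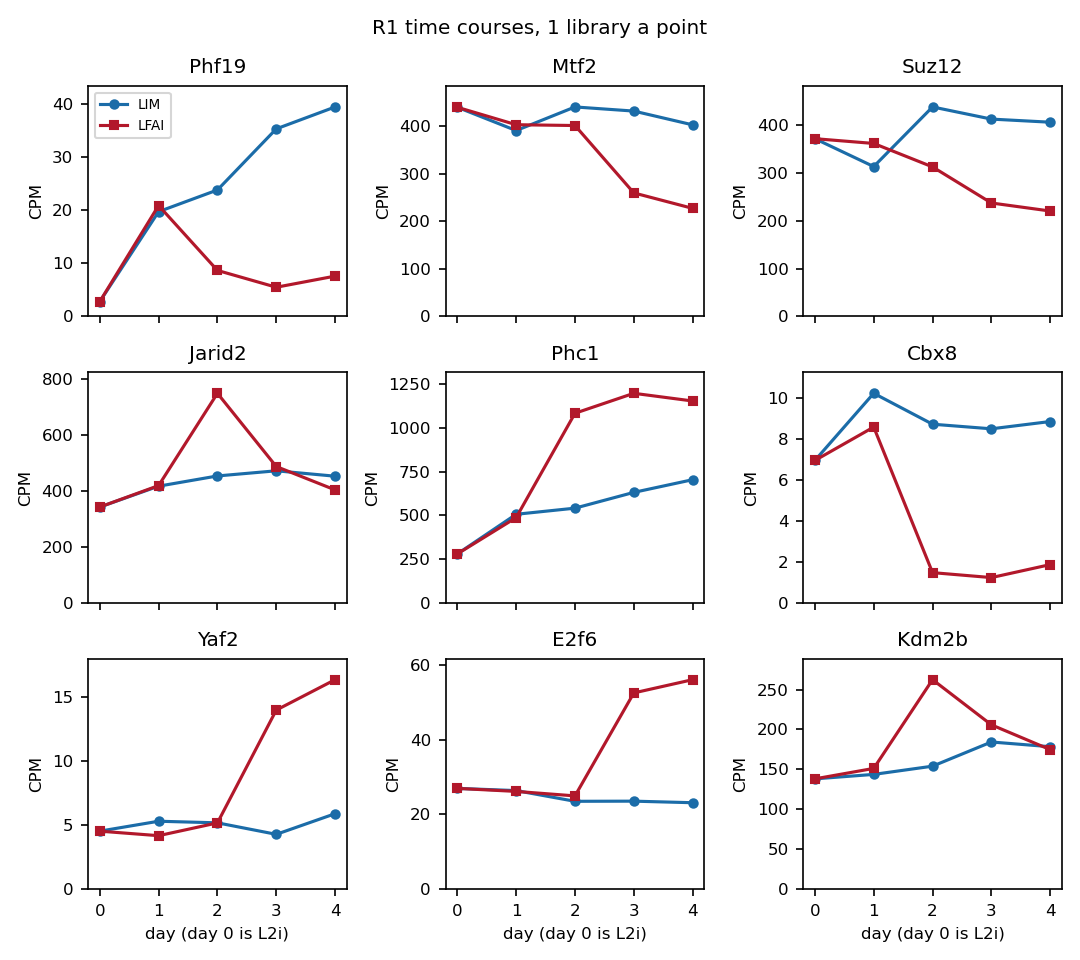
Level in CPM (vertical axis from 0) of 9 members over days 0 to 4 of the R1 time courses in LIM (blue circles) and LFAI (red squares), with 1 library per point and a shared day 0 library in L2i. Phf19 climbs to 39.5 CPM in LIM, Cbx8 drops to 1.47 CPM by day 2 of LFAI, and Yaf2 and E2f6 are up from day 3 of LFAI.

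The day 4 libraries of the time course and the set with both lines were compared by sign only, since coating, sequencing protocol and, for LIM, the time in the medium differ. Shared signs were not counted over all called genes, so the counts below show nothing particular to the members. Of the 14 members called lower at 4 days of LFAI, 13 had a negative change from day 0 to day 4 of the LFAI course, and 7 of them were past 1.5-fold. The exception was Phf19, at a log2 change of 1.40, and the 13 include Rybp, at -0.04. Of the 5 called higher, 4 had a positive change, 3 of them past 1.5-fold, and Ring1 stood at -0.10. The sizes differed for Bmi1, which was -2.28 ± 0.36 between the groups and -0.50 at day 4 of the course. For LIM, all 4 higher calls had a positive change at day 4, 2 of them past 1.5-fold, and 2 of 3 lower calls had a negative one, 1 of them past 1.5-fold, with Suz12 at 0.13. The germline genes differed between the sets. Dazl was at 111 CPM at day 0 and 69.2, 20.1, 20.4 and 9.37 CPM in LFAI, while Stag3 was at 92.4 CPM at day 0 and 78.1, 149, 177 and 107 CPM in LFAI, above day 0 on days 2 to 4. Hormad1 and Stk31 were at 22.1 and 24.7 CPM at day 0 and at 19.1 and 15.0 CPM on day 4 of LFAI. Most of the germline list was above day 0 on day 4 of LFAI, unlike in the set with both lines. Ddx4 went from 6.43 to 42.4 CPM, Mael from 1.9 to 31.6 CPM and Sycp3 from 6.8 to 22.8 CPM. Tdrkh went from 1.24 to 21.7 CPM, Taf7l from 2.92 to 15.2 CPM and Slc25a31 from 1.24 to 9.73 CPM. Smc1b went from 15.9 to 19.1 CPM and Sycp1 from 0.585 to 3.93 CPM. Brdt, from 8.4 to 3.51 CPM, and Tex101, from 0.658 to 0.429 CPM, were lower.

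Genes of related machinery, in lists chosen with earlier results of these data known, were set beside the members. Their counts stand against 21.5% of all genes called higher and 23.3% called lower at 4 days of LFAI against L2i, and 11.3% and 7.81% in LIM against L2i, and nothing particular to a list is read from them. Of 20 variant PRC1 partners that are not members, 2 were higher and 7 lower at 4 days of LFAI than in L2i, with a median log2 fold change of -0.20. Of 12 genes of the PR-DUB complex and other enzymes that remove ubiquitin from H2A, 3 were higher and 2 lower. Of 3 H3K27 demethylase genes, the median was -0.20. Of 13 genes of the COMPASS and MLL complexes, which place the activating mark on lysine 4 of histone H3, 1 was higher and 7 were lower, with a median of -0.44. Of 20 tested developmental regulators known to carry both this mark and that of PRC2 in embryonic stem cells, 3 were higher and 8 lower at 4 days than in L2i, with a median of -2.25. LIM against L2i gave 6 higher and 4 lower, with a median of 1.12. Pax6, of the neural lineage and the eye, was among those with the smallest p in LIM, at 57.7 and 25.9 CPM in LIM and 5.01 and 3.98 CPM in L2i. Cdx2, of the trophoblast and posterior lineages, was at 0.0626 and 0.0594 CPM in LIM and at 6.89 and 5.18 CPM in L2i. Of 15 genes of DNA replication and the cell cycle, 1 was higher and 6 lower at 4 days than in L2i, with a median of -0.29, and the part of this shift in the lower Polycomb levels was not tested.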

How the data were processed

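Gene expression of mouse embryonic stem cells was measured by stranded polyA RNA sequencing. The authors deposited raw read counts per gene for each library. The submitters' processing notes name HISAT2 2.0.4, HTSeq 0.6.1, DESeq2 1.10.1 and GRCm38 (mm10), while the annotation release and the strand setting are not given in the sources used here. The rows that name no gene were left out of library sizes. Ensembl IDs were matched to GENCODE M21 names for 47224 of 47729 genes.

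The 8 libraries with both lines were tested together with edgeR 4.0.16 (R 4.3.3): filterByExpr, TMM scaling, quasi-likelihood tests and Benjamini-Hochberg adjustment over 15525 genes, with 4 residual degrees of freedom. Alternatives used limma 3.58.1 and DESeq2 1.42.0, among others. The time course libraries are single and were not tested: changes are log2 CPM with a prior count of 2, in 15682 genes that reached 1 CPM. Shares used TPM from union exon lengths. The test was checked on simulated data.

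The labels call R1 and CGR8 biological replicates, so the line pairs the samples. Deviations from group means correlated at 0.04 to 0.40 between libraries of the same line. The members and all gene lists were chosen with earlier results of these data known. Full values are given for the 6 core genes. They are also given for members called in LIM or 4 days of LFAI against L2i or between these media. Up to 4 genes with the smallest p are named from each other list, and all germline genes are named for the time course. Coordinates are GRCm38, and promoter sequences are from RefSeq on GRCm38.p6.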

Additional observations from a re-analysis of the deposited data

Results flagged for a closer look

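In LIM against L2i the lines moved in opposite directions for Bmi1, with a log2 fold change of 0.96 in R1 and -0.71 in CGR8. This was singled out because both lines were past 1.5-fold in opposite directions, and with 1 library per line and medium the difference between the lines was not tested. The change in the group means was not called.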

How the results depend on the processing

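No called value changed sign in any of the 14 alternatives. The calls kept in all 14 were 2 of 7 in LIM against L2i, 2 of 7 at 35 h against L2i, 12 of 19 at 4 days against L2i, 9 of 20 at 4 days against LIM, 0 of 4 at 35 h against LIM and 13 of 18 at 4 days against 35 h. Leaving out each library in turn gave counts of 1 to 5 higher and 1 to 3 lower in LIM against L2i, 2 to 7 higher and 0 to 1 lower at 35 h against L2i, 3 to 4 higher and 11 to 16 lower at 4 days against L2i, 1 to 3 higher and 10 to 17 lower at 4 days against LIM, 0 to 2 higher and 0 to 2 lower at 35 h against LIM, and 2 to 3 higher and 12 to 17 lower at 4 days against 35 h, by edgeR's quasi-likelihood test.

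The counts at 35 h were the least stable. The 1 lower member against L2i became 3 with no filter on low counts, 3 with DESeq2's Wald test, 2 with the replicate block and 0 with only the 4 libraries. Against LIM, the 2 lower members became 5 with no filter, 4 with the Wald test, 1 with limma-voom, 4 with the replicate block and 0 with only the 4 libraries, and the 2 higher members became 5 with the Wald test, 3 with the replicate block and 0 with only the 4 libraries. In LIM against L2i, only the 4 libraries gave 2 higher members in place of 4. The cause was not tested, beyond the fewer libraries in the last fit. With the replicate block, which pairs the libraries of a line, no call of the fit without it was lost, and those gained stand beside their genes.

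Of the 210 member values, 47 changed sign in at least 1 alternative, 80 changes in all, none of them of a called value and with log2 sizes up to 1.55 before the change. Among those in the text, uncalled values changed sign when 1 library was left out for Ezh1 (-0.092 to 0.212 on the log2 scale), Ezh2 (-0.07 to 0.105) and Eed (-0.047 to 0.218) at 35 h against L2i, for Ring1 in LIM against L2i (-0.045 to 0.296) and for Phc1 at 4 days against LIM (-0.005 to 0.063). The Phc1 share at 4 days lay 8.03 percentage points above L2i, and 10.55 with the longest transcript as gene length. Another prior count or scaling left the time course counts of day 4 the same. Whether the counts of the earlier days change under these settings was not tested. Depth limits mainly the low genes, such as Cbx8 and Scml2, where 4 day libraries stood near 1 CPM.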
